A study of Mus musculus with 15 samples.

Results

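Genes of tendon and load-bearing matrix were followed through 15 RNA-seq libraries of mouse plantaris, a fast hindlimb muscle that ends in a long tendon. The 10 genes, Scx, Mkx, Tnmd, Fmod, Kera, Chad, Thbs4, Comp, Tnc and Cilp2, were chosen by symbol as a list of known tendon and matrix genes, and all 10 were found once among the 20406 genes of the deposited table. All 10 passed the filter on low counts, beside 14919 genes tested over 12 libraries and 15181 over all 15.

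Tendon is built by fibroblasts called tenocytes, which lay collagen fibrils parallel to the load. The transcription factors Scx and Mkx direct that cell type, the membrane glycoprotein tenomodulin (Tnmd) marks mature tenocytes, and small leucine-rich proteoglycans such as Fmod and Kera bind collagen and set the width of its fibrils. Thrombospondins (Thbs4, Comp) and tenascin C (Tnc) are secreted into matrix that bears load, including the junction where muscle fibres attach to tendon. A muscle sample can carry tendon, junction and connective tissue together, and in such bulk RNA fewer cells of a type and less RNA per cell cannot be told apart.

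All animals were adult male HSA-GFP mice, in which the human skeletal actin promoter drives a doxycycline-responsive factor that switches on a histone H2B-GFP label in muscle fibres. They entered the experiment at 4 months. The training was PoWeR, voluntary running on a weighted wheel, for 8 weeks. Each of the 5 groups held 3 libraries. Group 6M_UT was untrained at 6 months, 6M_PoW was trained for 8 weeks and taken at 6 months, 9M_UT was untrained at 9 months, and 9M_PoW+DT was trained for 8 weeks, detrained for 12 weeks and taken at 9 months. Group 6M_POW_LD, whose titles call it trained at 6 months with replicate numbers 4 to 6, carries LD library names whose meaning the labels do not give. Groups were taken from the sample titles, and the treatment field went against the title in 9 libraries: all 6 at 9 months name the other condition, and the 3 of 6M_POW_LD are called sedentary. The 3 sets (6 months, 9 months and LD) also carry library names from different series, and the labels do not say what the series are. An effect of age cannot be told apart from any effect of the series. The same holds for any difference between the LD group and another group. Nothing in the labels says that replicates came from separate mice, so p-values measure the spread between these libraries, which may be technical.

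The libraries held 18865048 to 27688842 estimated counts. The sum of 8 fast fibre markers was 81734.5 to 125568 CPM (counts scaled to a common library size of 1000000) across the libraries, and 7 slow fibre markers summed to 83.99 to 647 CPM. Of 9 cartilage markers 7 were listed. Col2a1, the main cartilage collagen, had at most 6 counts and was at 0 in 5 libraries, and Matn3 and Cnmd were each at 0 in 10, while Col9a1 had 71 to 194 counts and Sox9 had 1 to 45. Of 7 bone markers 4 were listed. The osteoblast factor Sp7 was at 0 in 10 libraries, while Alpl had 124 to 355 counts, Phex 8 to 66 and Dmp1 up to 39. Schwann and nerve markers (8 genes) summed to 179 CPM in 6M_POW_LD replicate 5 and to 42.8 to 73.2 CPM in the others, and adipocyte markers (7 genes) to 98.1 CPM in 9M_PoW+DT replicate 3 and 5.40 to 33.8 CPM in the others.

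Corrected for length, Fmod and Thbs4 were the most abundant of the 10 genes, at a mean over the 15 libraries of 15.3 and 12.2 CPM per kilobase of exon. Chad followed at 3.77, Scx at 2.20, Comp at 1.76 and Tnmd at 1.31 CPM per kilobase. The lowest levels were those of Kera at 0.607, Cilp2 at 0.426, Tnc at 0.187 and Mkx at 0.155 CPM per kilobase. Genes at the low end rested on few reads, with 3 to 43 counts per library for Mkx and 7 to 112 for Kera, against 616 to 2001 for Fmod.

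The 220 bases before the annotated start are shown for Fmod and Thbs4, the most abundant of the genes, and for Tnmd, a known target of scleraxis. Scleraxis is a basic helix-loop-helix factor that binds E-boxes, so the capitals mark every E-box of the form CANNTG, which reads as the same form on the other strand. The sequences are RefSeq's for GRCm38.p6, given 5′ to 3′ on the strand of the gene, and entries matched 7 of the 10 genes.
Fmod, chr1:134037034-134037253, plus strand: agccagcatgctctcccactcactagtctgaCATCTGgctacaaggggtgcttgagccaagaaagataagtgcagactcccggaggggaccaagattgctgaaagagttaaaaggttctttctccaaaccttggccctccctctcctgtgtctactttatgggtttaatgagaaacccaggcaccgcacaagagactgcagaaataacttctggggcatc
Thbs4, chr13:92794819-92795038, minus strand: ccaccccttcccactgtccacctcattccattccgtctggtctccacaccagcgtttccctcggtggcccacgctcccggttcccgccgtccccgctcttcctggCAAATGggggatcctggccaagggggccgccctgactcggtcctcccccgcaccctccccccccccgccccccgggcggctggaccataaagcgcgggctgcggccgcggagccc
Tnmd, chrX:133850760-133850979, plus strand: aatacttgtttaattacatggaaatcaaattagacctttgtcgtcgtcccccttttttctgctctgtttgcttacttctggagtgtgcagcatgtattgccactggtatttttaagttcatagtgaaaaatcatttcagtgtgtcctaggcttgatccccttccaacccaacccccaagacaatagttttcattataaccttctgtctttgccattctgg
The Fmod window holds 1 match, CATCTG, beginning 189 bases before the start, and the Thbs4 window holds 1, CAAATG, beginning 115 bases before it. The Tnmd window holds none of these letters. Among 32851 promoter windows of the same length 61.7% hold at least 1 CANNTG, and 12.8% hold CAGATG or its reverse complement CATCTG, the form found in Fmod. A match is a description of the letters and not a site.

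The 2 tendon transcription factors overlapped between all groups that were compared. The annotated exons of Scx (chr15:76457452-76459458, mm10, plus strand), merged over its transcripts, form 1 block of 2007 bases, its whole span. Scx lies within the span of Bop1 on the other strand, with which it shares no exon base. Its level was 3.59 ± 1.08 CPM in 6M_UT, 4.17 ± 0.567 in 6M_PoW, 4.63 ± 1.65 in 6M_POW_LD, 4.39 ± 1.66 in 9M_UT and 5.28 ± 0.976 in 9M_PoW+DT (SD, n = 3 each). The lowest library was 6M_UT replicate 1 at 2.36 CPM and the highest was 9M_PoW+DT replicate 3 at 6.33 CPM. Mkx, the Mohawk homeobox gene, ran from 0.139 CPM in 9M_PoW+DT replicate 3 to 1.61 CPM in 6M_POW_LD replicate 5, and the other libraries of these groups lay between the extremes. An annotated transcript on the same strand shares 4.91% of the exon bases of Mkx.

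Tnmd (chrX:133850980-133865577, mm10, plus strand) had 0.860, 1.66 and 1.66 CPM in 6M_UT, 1.31, 1.04 and 2.07 in 6M_PoW, and 1.67, 2.36 and 2.54 in 6M_POW_LD. At 9 months it had 2.71, 1.27 and 1.53 CPM in 9M_UT and 2.78, 1.88 and 1.29 in 9M_PoW+DT. The trained and untrained libraries overlapped at both ages, and only the LD libraries all lay above 6M_UT. That was a near tie, at 1.670 CPM (39 counts) in 6M_POW_LD replicate 4 against 1.663 CPM (47 counts) in 6M_UT replicate 2. These values rest on 20 to 64 counts per library, for which counting alone gives a coefficient of variation of 15.6%, beside 34.8% measured within groups.

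Fibromodulin (Fmod, chr1:134037254-134048277, mm10, plus strand), a collagen-binding proteoglycan, had 28.8, 42.4 and 36.4 CPM in 6M_UT, 56.8, 39.2 and 27.7 in 6M_PoW, and 46.9, 65.98 and 53.9 in 6M_POW_LD. At 9 months it had 68.2, 51.3 and 39.03 CPM in 9M_UT and 86.9, 80.99 and 33.1 in 9M_PoW+DT. Within both 6M_PoW and 9M_PoW+DT replicate 3 lay below all libraries of the untrained group of its age, while replicate 1 lay above them all, so the groups overlapped in both pairs. All 3 LD libraries lay above 6M_UT.

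Keratocan (Kera, chr10:97606879-97613692, mm10, plus strand), a proteoglycan of cornea and tendon, had 0.301, 0.708 and 0.655 CPM in 6M_UT and 1.83, 1.70 and 0.899 in 6M_PoW. It had 1.07, 4.197 and 1.29 CPM in 6M_POW_LD, 0.886, 1.32 and 0.394 in 9M_UT, and 3.26, 1.36 and 0.878 in 9M_PoW+DT. The trained and the LD libraries of 6 months all lay above 6M_UT, and 9M_PoW+DT overlapped 9M_UT through its replicate 3. Chad (chr11:94565047-94569127, mm10, plus strand), a leucine-rich matrix protein that binds collagen and integrin, ranged from 2.11 CPM in 6M_UT replicate 1 to 11.3 CPM in 9M_PoW+DT replicate 1. Its groups overlapped in every comparison, and it lies within the span of Acsf2 on the other strand with no shared exon base.

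Thrombospondin 4 (Thbs4, chr13:92751590-92794818, mm10, minus strand), a matrix protein of tendon and its junction with muscle, had 33.2, 35.1 and 30.7 CPM in 6M_UT, 34.3, 37.2 and 36.1 in 6M_PoW, and 42.7, 46.3 and 43.2 in 6M_POW_LD. At 9 months it had 44.2, 39.5 and 33.6 CPM in 9M_UT and 59.7, 49.97 and 36.8 in 9M_PoW+DT. The LD libraries lay above all 6 other libraries of 6 months, while the 9-month groups overlapped through 9M_PoW+DT replicate 3. Its 1.94-fold span from the lowest to the highest library was the narrowest of the 10 genes, beside 13.9-fold for Kera.

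Comp (chr8:70373558-70382066, mm10, plus strand), the cartilage oligomeric matrix protein, had 2.24, 5.17 and 3.14 CPM in 6M_UT, 4.59, 4.92 and 3.33 in 6M_PoW, and 4.71, 5.96 and 4.84 in 6M_POW_LD. At 9 months it had 7.14, 7.38 and 4.13 CPM in 9M_UT and 10.3, 5.02 and 5.501 in 9M_PoW+DT. All 3 libraries of 9M_PoW+DT lay above all 3 of 6M_PoW, and the other pairs of groups compared overlapped. Tnc (chr4:63959785-64047015, mm10, minus strand), which is switched on by load and injury, stayed between 0.655 and 2.74 CPM and overlapped in every comparison. Another gene on the opposite strand shares 2.26% of the exon bases of Tnc. Cilp2 (chr8:69880369-69887687, mm10, minus strand), a matrix protein of cartilage and tendon, had its highest and its lowest value in the same group, at 3.34 CPM in 9M_PoW+DT replicate 1 and 0.416 CPM in replicate 3.

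**Figure D1:**
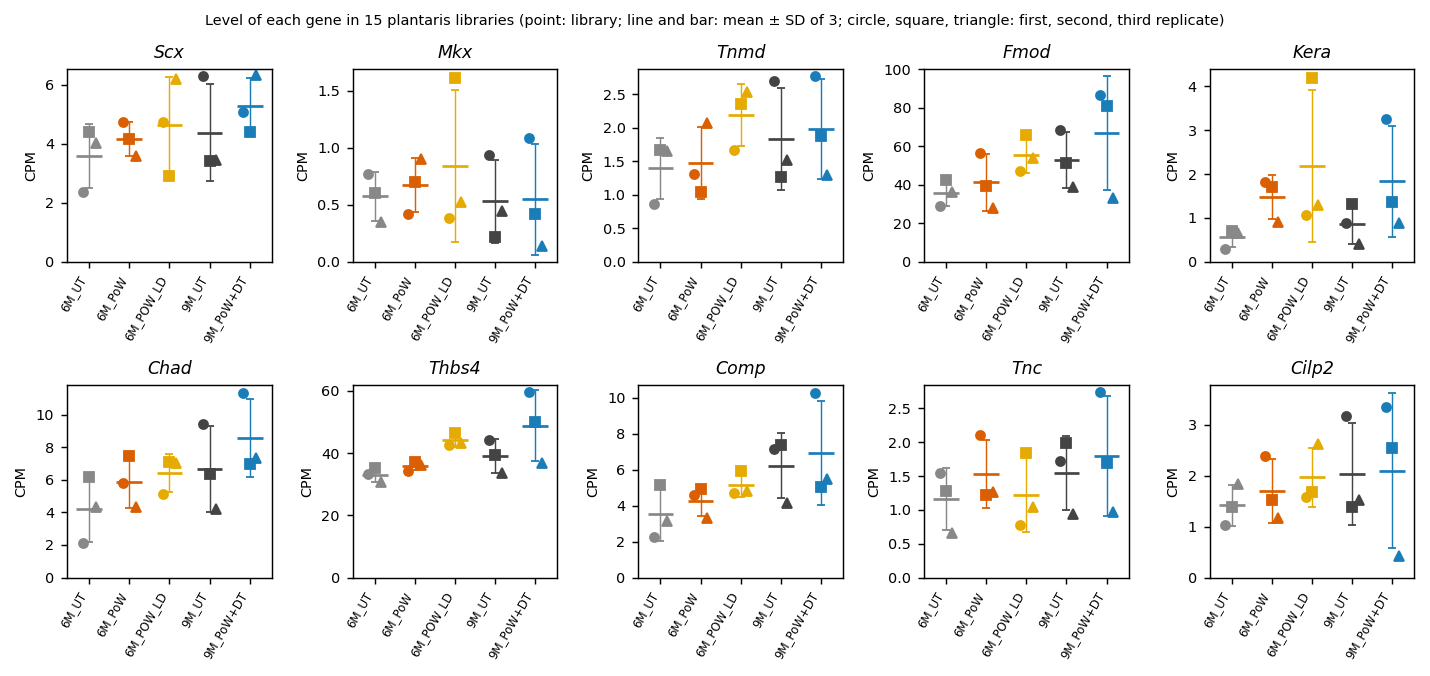
Level in CPM (vertical axis, from 0) of each gene in the 15 libraries, by group, with points for libraries and the line and bar for the mean ± SD of 3. Thbs4 in the LD group, at 42.7 to 46.3 CPM, lies clear of both other 6-month groups, while Kera in the same group spans 1.07 to 4.197 CPM.

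The comparison of 6M_PoW with 6M_UT asks what 8 weeks of weighted running did to these transcripts. All 10 fitted log2 fold changes were above 0, with a median of 0.24, beside 50.2% above 0 among all genes tested, and none passed the test. Many of the 10 genes moved together between libraries, so here and below a count above 0 is not one of independent genes. Kera differed the most, at 1.48 ± 0.503 CPM against 0.554 ± 0.221 (SD, n = 3 each), a log2 fold change of 1.40 ± 0.56 (SE) or 2.63-fold. Its edgeR adjusted p was 0.436, with an unadjusted p of 0.0245. It was the 1 gene of the 10 whose trained libraries all lay above the untrained ones, which 7.89% of all genes did, and the 1 with an unadjusted p under 0.05, beside 9.75% of all genes. Chad followed at 0.47 ± 0.39 and Tnc at 0.39 ± 0.45. The other 7 lay between 0.07 ± 0.42 (Tnmd) and 0.28 ± 0.35 (Comp), and edgeR adjusted p for the 9 genes other than Kera was 0.733 to 0.973. edgeR called 0 of 14919 genes in this comparison (0%), with 1455 at an unadjusted p under 0.05, and DESeq2 called 112.

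One untrained library stood low. 6M_UT replicate 1 was the lowest of all 15 libraries for 5 genes, Tnmd, Scx, Comp, Chad and Kera, and its 10 genes summed to 73.2 CPM against 98.8 and 83.7 in the other 2. Without it 8 of 10 genes were above 0 with a median of 0.10. Chad stood at 0.16 and Kera at 1.11. Leaving out 6M_PoW replicate 1 or replicate 3 also left 8 of 10 above 0, with medians of 0.15 and 0.43. The slow fibre markers were lowest of all libraries in 6M_UT replicate 1 as well, at 83.99 CPM against up to 288 in that group, and their part in the result was not tested.

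The comparison of 9M_PoW+DT with 9M_UT asks what remained 12 weeks after the training ended. Again all 10 log2 fold changes, which are not independent, were above 0, with a median of 0.24, beside 50.9% of all genes. None passed the test, which 0.0201% of all genes did. The most precise difference was that of Thbs4, at 48.8 ± 11.51 CPM against 39.1 ± 5.32 (SD, n = 3 each), a log2 fold change of 0.32 ± 0.14 (edgeR adjusted p = 0.747). Kera had the largest, at 1.09 ± 0.55 (edgeR adjusted p = 0.766), with 1.83 ± 1.26 against 0.867 ± 0.464 CPM. Chad stood at 0.37 ± 0.38 and Fmod at 0.34 ± 0.40. The other 6 lay between 0.04 ± 0.70 (Mkx) and 0.26 ± 0.28 (Scx), and no gene of the 10 had groups that did not overlap, beside 6.19% of all genes with higher levels and no overlap.

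The detrained group was the least even of the 5. 9M_PoW+DT replicate 1 was the highest of all 15 libraries for 7 genes, Tnmd, Fmod, Thbs4, Comp, Chad, Tnc and Cilp2, while replicate 3 was the lowest of all for Mkx and Cilp2 and the highest for Scx. The 10 genes summed to 187, 155 and 92.8 CPM in the 3 detrained libraries and to 145, 114 and 89.2 CPM in the 3 of 9M_UT. Without 9M_PoW+DT replicate 1 only 5 of 10 genes were above 0 and the median was -0.05. Kera then stood at 0.37 and Thbs4 at 0.15. Leaving out 9M_UT replicate 3, the low library of the other group, also left 5 of 10 above 0, with a median of 0.05, and leaving out 9M_UT replicate 1 gave a median of 0.55. Slow fibre markers summed to 353 CPM in 9M_PoW+DT replicate 1, 86.5 CPM in replicate 3 and 647 CPM in 9M_UT replicate 1, and adipocyte markers were highest in replicate 3 of the detrained group. Their part in the result was not tested.

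**Figure D2:**
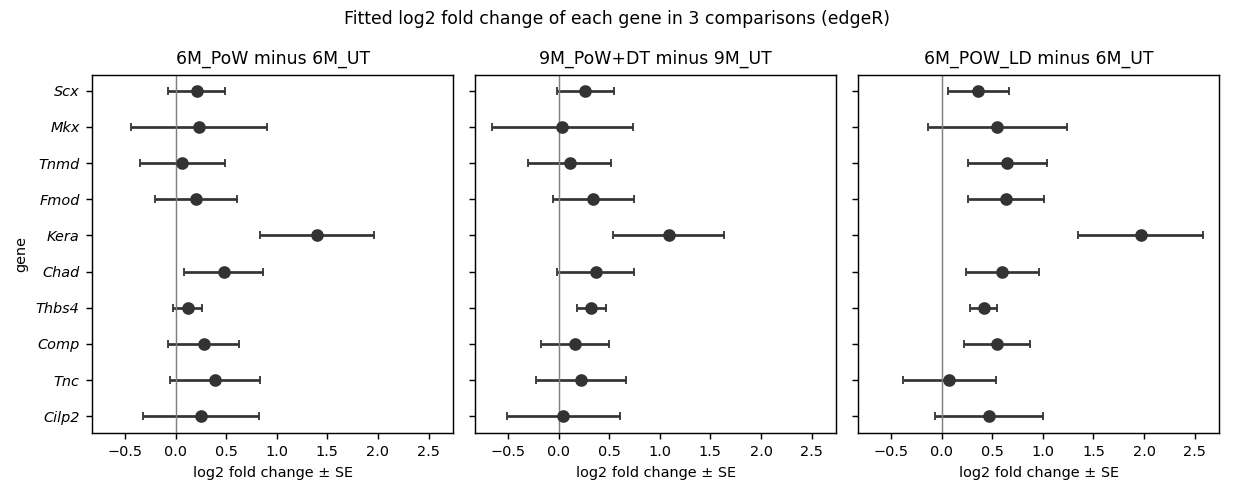
Fitted log2 fold change (horizontal axis) of each gene in 3 comparisons, as points with bars of ± 1 SE from edgeR. Kera lies farthest to the right in each panel, at 1.40, 1.09 and 1.97, with a wide bar, and Thbs4 has the narrowest bar.

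**Figure D3:**
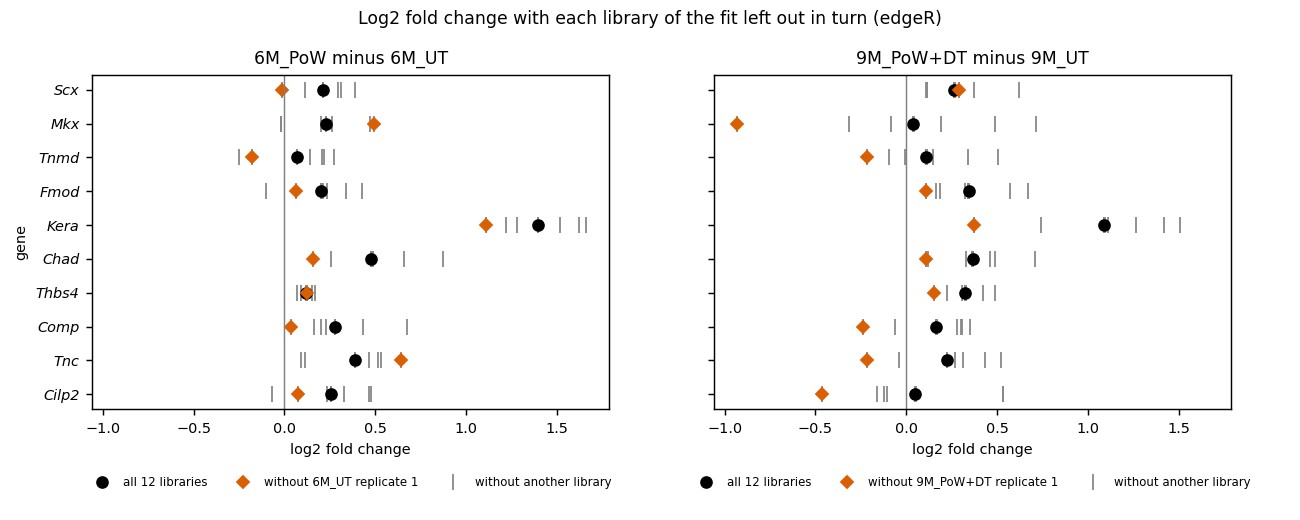
Log2 fold change (horizontal axis) of each gene with all 12 libraries (circles) and with each library left out in turn, the diamonds marking the fit without 6M_UT replicate 1 (left) and without 9M_PoW+DT replicate 1 (right). On the right, 5 diamonds lie below 0, and that of Kera lies at 0.37 against 1.09 with all libraries.

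The test of the difference, detraining minus training, called none of the 10 genes, beside 0.0268% of all genes. The median was -0.11 and 4 of 10 were above 0, beside 50.6% of all genes. The log2 difference ran from -0.31 ± 0.78 for Kera to 0.20 ± 0.20 for Thbs4, with edgeR adjusted p of 0.804 to 0.992.

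Between the untrained groups, 9M_UT against 6M_UT, 9 of 10 genes were above 0 with a median log2 fold change of 0.47, beside 49.0% of all genes, and none passed the test, which 0.0134% of all genes did. Comp had the smallest p, at 6.22 ± 1.81 CPM against 3.51 ± 1.501, a log2 fold change of 0.81 ± 0.35 (edgeR adjusted p = 0.724). Chad stood at 0.65 ± 0.39, Kera at 0.62 ± 0.58 and Fmod at 0.56 ± 0.41, and Mkx at -0.10. The groups overlapped for all 10 genes, where 5.34% of all genes were higher without overlap. Without 9M_UT replicate 1 the median was 0.23, with 7 of 10 above 0 and Chad at 0.31, and without 9M_UT replicate 3 it was 0.68.

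Detrained against trained muscle, 9M_PoW+DT against 6M_PoW, gave a median of 0.39 with 9 of 10 above 0, beside 48.7% of all genes. No member passed, beside 0.295% of all genes. Thbs4 was at 0.45 ± 0.14 (edgeR adjusted p = 0.204) and Comp at 0.70 ± 0.34 (edgeR adjusted p = 0.419), the 1 gene of the 10 whose groups did not overlap, as for 9.53% of all genes in that direction. Without 9M_PoW+DT replicate 1 the median was 0.19 with 6 of 10 above 0, Comp stood at 0.30 and Thbs4 at 0.27, and without 9M_PoW+DT replicate 3 the median was 0.64. This comparison and that of the untrained groups cross the 2 ages and so the 2 series of library names. Both LD comparisons below cross series of names as well, so any effect of the series cannot be told apart there either.

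In the LD libraries against 6M_UT, all 10 genes were above 0 with a median log2 fold change of 0.55, beside 51.2% of all genes. Thbs4 was at 44.1 ± 1.97 CPM against 33.0 ± 2.19 (SD, n = 3 each), a log2 fold change of 0.42 ± 0.13 or 1.34-fold (edgeR adjusted p = 0.0830). Kera was at 2.19 ± 1.74 against 0.554 ± 0.221 CPM, at 1.97 ± 0.62 or 3.91-fold (edgeR adjusted p = 0.0781). Neither passed, and no other gene of the 10 did, where 4.99% of all genes passed. Tnmd stood at 0.65 ± 0.39, Fmod at 0.63 ± 0.38 and Comp at 0.55 ± 0.32. For 4 of the 10 genes, Tnmd, Fmod, Thbs4 and Kera, all LD libraries lay above all untrained ones, as did 12.6% of all genes. For Tnmd this rested on a near tie, at 1.670 against 1.663 CPM.

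Thbs4 passed in 2 of the fits that left out a library outside this pair of groups: without 9M_PoW+DT replicate 1 (log2 fold change 0.417, edgeR adjusted p = 0.0429) and without 9M_PoW+DT replicate 3 (0.416, edgeR adjusted p = 0.0239). Its fold change was 0.42 with all libraries, and the libraries left out belong to neither group compared. Without 6M_UT replicate 1 the median of the 10 genes was 0.36. The value of Kera rested on 6M_POW_LD replicate 5, without which it was 1.07. That library was the highest of all 15 for Kera and Mkx, and it also held the most Schwann and nerve markers, at 179 CPM. Markers of the myotendinous junction (7 genes) summed to 154 to 167 CPM in the LD libraries, 120.03 to 124.9 CPM in 6M_UT and 102.5 to 119.7 CPM in 6M_PoW. Against 6M_UT, 5 of the 7 junction markers were above 0 in the LD libraries, with a median log2 fold change of 0.19. Against 6M_PoW, 6 of 7 were, with a median of 0.51. In training 1 of the 7 junction markers was above 0, with a median of -0.13. At 9 months they summed to 124, 143 and 172 CPM in 9M_PoW+DT replicates 1, 2 and 3, and to 126 to 159 CPM in 9M_UT. The highest of all 15 sums was thus in 9M_PoW+DT replicate 3. The part of either marker list in the result was not tested.

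Against the other trained group, 6M_PoW, the LD libraries had a median of 0.28 with 9 of 10 above 0, beside 49.8% of all genes, and Tnc at -0.31. Thbs4 was again the gene without overlap, as for 10.7% of all genes in that direction, at 0.30 ± 0.13 (edgeR adjusted p = 0.312). None of the 10 passed, beside 2.40% of all genes. Without 6M_PoW replicate 3 the median was 0.17, and 7 of 10 were above 0 without either 6M_POW_LD replicate 5 or 6. The training, age and LD against untrained comparisons share the 6M_UT libraries. The training, detrained against trained and LD against trained comparisons share those of 6M_PoW, and both LD comparisons share the LD libraries. Values of comparisons that share libraries stand side by side and not as separate evidence.

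Within groups, the 5 genes with a mean log2 CPM of 2 or more varied more than the median gene at or above that level, whose coefficient of variation was 11.49%. Fmod, with 616 to 2001 counts, had a within-group coefficient of variation of 30.4%, where counting alone gives 2.94%. Of the 9641 genes at or above that level, 96.4% varied less. The same share was 97.6% for Chad, 96.8% for Comp and 95.7% for Scx. Thbs4 lay nearest to the median, at 12.8% with 58.5% of genes varying less. These shares include counting noise, and many of the 9641 genes are far more abundant than Scx, Comp or Chad. The spread beyond counting that edgeR estimated was 24.9% for Scx, 26.6% for Comp, 30.0% for Chad, 31.4% for Fmod and 12.7% for Thbs4. Its trend for genes of like abundance was 21.7%, 20.6%, 19.2%, 12.6% and 12.8% in that order. Between groups, Thbs4 had the largest share of its log2 variance, 61.2%, followed by Kera at 48.2% and Comp at 48.1%, and Cilp2 had the smallest at 6.22%. The median share was 32.2% over the 10 genes and 37.5% over all genes tested.

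**Figure D4:**
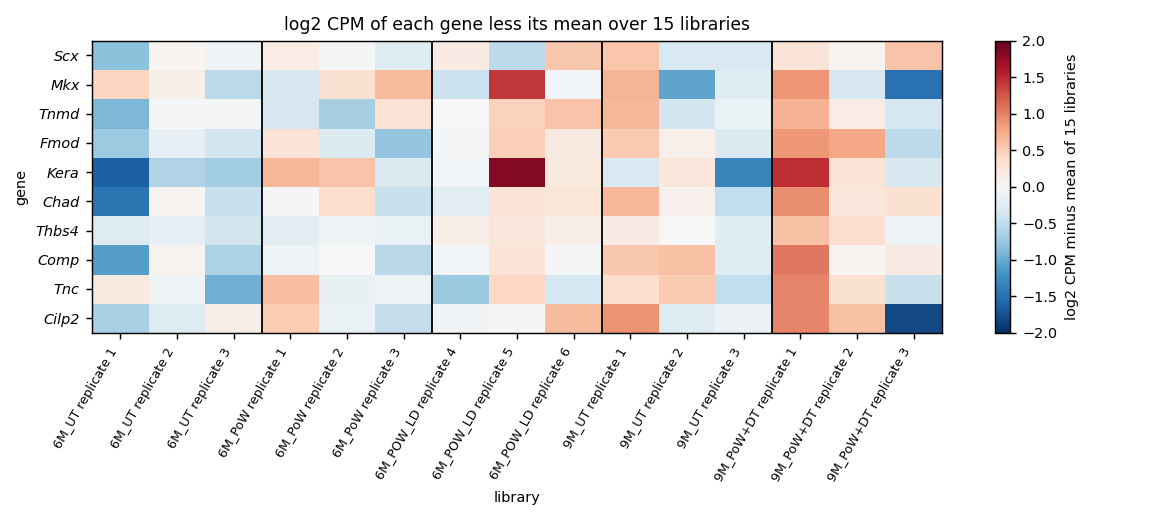
Log2 CPM of each gene (rows) in each of 15 libraries (columns), less the gene's mean over the libraries, with red above and blue below that mean and lines between groups. The column of 9M_PoW+DT replicate 1 is red throughout, that of 6M_UT replicate 1 is blue for 8 of 10 genes, and Mkx and Cilp2 are bluest in 9M_PoW+DT replicate 3.

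The genes moved together from library to library to differing degrees. The Pearson correlation of a gene with the mean of the other 9, over 15 libraries that share their depth and group structure, ran from 0.33 for Mkx to 0.88 for Fmod. With group means removed it ran from 0.12 for Scx to 0.84 for Fmod. Outside the list, the genes most like the mean of the 10 were Gm11451 (r = 0.87), Prepl (0.86), Tpgs2 (0.86), Ccdc88c (0.85) and Rasa4 (0.84). Among the genes most like Thbs4 were Fmod (0.83) and Jph2 (0.82), a gene of the muscle fibre's membrane junctions for calcium release. Fmod was most like Smpd1 (0.85), Thbs4 (0.83) and Slc41a3 (0.83), and among those most like Tnmd were Hdac2 (0.81) and Rps19bp1 (0.81). By list, the median r with the mean of the 10 was 0.53 for 7 slow fibre markers. It was 0.48 for 9 small leucine-rich proteoglycans and 0.45 for 3 thrombospondins outside the 10 genes. For 41 other tendon and matrix genes, which share genes with both of those lists, it was 0.39. Schwann and nerve markers (8 genes) had 0.40 and 7 leukocyte markers 0.36. Lower medians were 0.26 for 7 junction markers, 0.25 for 7 endothelial markers and 0.24 for 13 fibro-adipogenic progenitor markers. They were 0.24 for 3 bone markers, 0.04 for 7 adipocyte markers and -0.28 for 8 fast fibre markers. Over all genes tested the median was 0.02, and r ran from -0.92 to 0.87.

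The wider list of 41 tendon and load-bearing matrix genes, which includes collagens and their crosslinking enzymes, was read beside the 10 genes. In training its median log2 fold change was 0.29 with 32 of 41 above 0, and 14 were higher and 1 lower at an unadjusted p under 0.05, though edgeR called none. Among all 14919 genes 706 were higher and 749 lower at that threshold. Markers of other cells were higher in the trained libraries too, without overlap: 7 leukocyte markers summed to 48.1 to 67.1 CPM against 34.8 to 37.5, and 7 endothelial markers to 325 to 354 CPM against 256 to 298. Of 13 fibro-adipogenic progenitor markers 12 were above 0. Their part in the result was not tested. Col5a2, a chain of the collagen that nucleates fibrils, had the smallest p, at 14.96 ± 2.08 CPM against 7.49 ± 1.05, a log2 fold change of 1.001 ± 0.16 (edgeR adjusted p = 0.0701). Next came Loxl2, a collagen crosslinking enzyme, at 0.72 ± 0.16 (edgeR adjusted p = 0.160), Lum, a proteoglycan related to Fmod, at 0.88 ± 0.23 (0.238), and the fibronectin gene Fn1 at 0.83 ± 0.22 (0.252). After detraining the median was 0.06 with 21 of 41 above 0, and 2 were higher and 4 lower at an unadjusted p under 0.05, none called by edgeR, beside 481 higher and 491 lower of all 14919 genes. Sparc, a collagen-binding glycoprotein, stood at 0.37 ± 0.09 (edgeR adjusted p = 0.575). Below 0 stood Tgfbi at -0.38 ± 0.12 (edgeR adjusted p = 0.646), Ccn1 at -0.86 ± 0.27 (0.646) and Dcn at -0.25 ± 0.09 (0.677). In the LD libraries against 6M_UT the median was 0.36 with 34 of 41 above 0, beside 51.2% of all genes. Called higher were 6: Col5a2, Fn1, Dcn, Prelp, Loxl2 and Lum (edgeR adjusted p = 0.00305 to 0.0447). Of all 15181 genes, 327 were called higher. The 41 genes summed to 1394 CPM in 6M_POW_LD replicate 5 and to 1080 and 1124 CPM in replicates 4 and 6. Without replicate 5 the calls among all genes fell from 757 to 288. The LD and 6M_UT libraries carry names from different series. All 7 leukocyte and 12 of 13 fibro-adipogenic progenitor markers were above 0 in that comparison as well, and their part in the result was not tested.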

How the data were processed

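RNA from 15 mouse plantaris samples was sequenced. The deposited table holds expected counts per gene, made by the authors. The submitters' processing notes name STAR 2.7.3a, DESeq2, Partek and mm10, with no role for each. The way reads were counted, the strand setting and the annotation were not given in the sources used here. Between 22.4% and 27.3% of values per library were not whole (tolerance 0.001), and they were rounded for tests.

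Counts were fitted with edgeR 4.0.16 (TMM factors, filterByExpr, robust quasi-likelihood test, R 4.3.3) over the 4 groups without LD (12 libraries), or over all 15 libraries for LD comparisons, with no covariate. P-values were adjusted over all genes tested (Benjamini-Hochberg), and a gene was called at an adjusted p under 0.05. SEs are the fold change over the root of F. CPM used TMM library sizes, and log2 CPM a prior count of 2. Precision at low levels is set by counts per library, from 3 to 2001 for the 10 genes. Lengths and positions are GENCODE vM21's on GRCm38, whose gene coordinates matched the deposited ones. The likeness to other genes was taken over genes with a mean log2 CPM of 2 or more. The fits were also run on simulated data in which every gene had the same spread. The spread that edgeR estimated for the 10 genes ran from 12.7% (Thbs4) to 52.5% (Mkx), so that run does not show the power for them.

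The genes, lists and tests were chosen with earlier results of these data known. Named were all 10 genes, the 4 other tendon genes with the smallest p in training and in detraining, the genes most alike (5 for the mean, 3 each for Tnmd, Thbs4 and Fmod, of which 2 are not reported here), and libraries highest or lowest in 4 or more genes. Alternatives were RLE factors, DESeq2 1.42.0, limma 3.58.1 (voom), other filters, the replicate number as a block, each library left out, LD libraries joined to either 6-month group and the 9-month groups exchanged. Leaving out 6M_UT replicate 1 and 9M_PoW+DT replicate 1 together was chosen after seeing the data.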

Additional observations from a re-analysis of the deposited data

How the results depend on the processing

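Of 1405 values of the 10 genes under other settings, 1289 kept their direction and side of the threshold, 114 changed sign and 2 newly passed (Thbs4, LD against untrained). The cause was not tested. The 1405 values include fits that left out a library of neither group compared, so the tally does not measure stability. With replicate numbers as a block, log2 fold changes of detraining were -0.025 for Mkx and -0.027 for Cilp2, and calls numbered 1 for training, 5 for age and 19 for detrained against trained muscle. The numbers are not taken to pair the libraries: same-numbered deviations correlated at -0.06, 0.10 and -0.01 at 6 months and 0.15, -0.09 and 0.10 at 9 months. LD comparisons share no numbers, so no block could be fitted.

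Of all genes, edgeR called 0 in training, 3 in detraining, 4 in the difference, 2 in age, 44 in detrained against trained, 757 in LD against untrained and 365 in LD against trained. In that order DESeq2 called 112, 30, 111, 58, 348, 1190 and 675. limma-voom called 0 in detraining, the difference and age (954, 1496 and 1014 at an unadjusted p under 0.05) and 24 in detrained against trained. With no filter the calls were 8 for training, 10 for the difference, 10 for age and 81 for detrained against trained, and with the stricter filter 0 for age (782 unadjusted). LD libraries added to the trained group gave 29 for training and 2 for the difference, and added to the untrained group 1 for the difference. With the 9-month groups exchanged, the difference and age had 0 (1051 and 773 unadjusted). Without both libraries chosen after seeing the data, calls numbered 3 for training, 9 for detraining, 10 for the difference, 9 for age, 93 for detrained against trained and 382 for LD against untrained. With 1 library left out they ran from 0 to 10, 1 to 6, 0 to 26, 1 to 15, 0 to 109, 288 to 827 and 157 to 428, in the order above, and calls among the 10 genes from 0 to 1 in LD against untrained.

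With LD libraries added to the untrained group, training was -0.29 for Tnmd, -0.073 for Mkx, -0.15 for Fmod, -0.10 for Thbs4, -0.023 for Comp and -0.0022 for Cilp2, and the difference 0.11 for Mkx, 0.18 for Comp, 0.22 for Chad, 0.99 for Kera and 0.04997 for Cilp2. Added to the trained group, they gave a difference of -0.28 for Tnmd, -0.027 for Scx and -0.091 for Fmod. Without both chosen libraries, training was -0.18 for Tnmd and -0.013 for Scx. Detraining was -0.22 for Tnmd, -0.93 for Mkx, -0.24 for Comp, -0.22 for Tnc and -0.46 for Cilp2. The difference was -0.036 for Tnmd, age 0.17 for Mkx, and detrained against trained -0.40 for Kera, -0.20 for Tnc and -0.20 for Cilp2. limma-voom gave detraining at -0.18 for Mkx and -0.30 for Cilp2, and detrained against trained at -0.041 for Cilp2. Exchanging the 9-month groups turns the sign of every detraining value. It gave differences of -0.18 for Tnmd, -0.47 for Scx, -0.54 for Fmod and -0.44 for Thbs4, and detrained against trained at -0.77 for Kera.

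With 1 library left out, training ran from -0.25 to 0.27 for Tnmd, -0.013 to 0.39 for Scx, -0.021 to 0.49 for Mkx, -0.10 to 0.43 for Fmod and -0.0701 to 0.48 for Cilp2. Detraining ran from -0.21 to 0.51 for Tnmd, -0.93 to 0.72 for Mkx, -0.24 to 0.35 for Comp, -0.22 to 0.52 for Tnc and -0.46 to 0.53 for Cilp2. The median of the difference ran from -0.44 to 0.29, and the difference from -0.28 to 0.44 for Tnmd, -0.12 to 0.41 for Scx, -1.16 to 0.49 for Mkx, -0.0904 to 0.47 for Fmod, -0.52 to 0.12 for Comp, -0.51 to 0.23 for Chad, -1.02 to 0.11 for Kera, -0.61 to 0.13 for Tnc and -0.72 to 0.28 for Cilp2. Age ran from -0.00026 to 0.60 for Tnmd, -0.0701 to 0.46 for Scx and -0.77 to 0.26 for Mkx. Detrained against trained ran from -1.25 to 0.16 for Mkx, -0.40 to 0.65 for Kera, -0.20 to 0.54 for Tnc and -0.20 to 0.80 for Cilp2. LD against untrained ran from -0.33 to 0.89 for Mkx and -0.35 to 0.33 for Tnc, and LD against trained from -0.12 to 0.40 for Scx, -0.56 to 0.66 for Mkx, -0.047 to 0.34 for Chad, -0.32 to 0.89 for Kera and -0.044 to 0.54 for Cilp2.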

Other observations

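Small leucine-rich proteoglycans, the family of Fmod and Kera, had 12 members tested, which include Fmod, Kera and Chad of the 10 genes. The median log2 fold change of the 12 was 0.35 in training with 11 of 12 above 0, -0.07 in detraining with 3 of 12 above 0, and 0.53 in LD against untrained with 11 of 12 above 0 and 4 called by edgeR. The 3 above 0 in detraining were Fmod (0.34), Kera (1.09) and Chad (0.37), and every family member outside the 10 genes was below 0 there. Of all genes, 50.2%, 50.9% and 51.2% were above 0 in these comparisons, and edgeR called 4.99% in LD against untrained. Of the 5 thrombospondins, which include Thbs4 and Comp of the 10 genes, 4 were above 0 in each of these comparisons, with medians of 0.17, 0.16 and 0.36. Among other tendon and matrix genes, the likeness to the mean of the 10 over 15 libraries ran from r = -0.33 for the crosslinking enzyme gene Lox to 0.82 for Abi3bp.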
